A study of Mus musculus with 2 samples.

Results

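Cycling radial glia are the dividing fraction of the glia-like stem cells of the dentate gyrus, the hippocampal region that goes on making granule neurons after birth. Members were chosen by the UMI counts of 15 genes in each cell, so the levels of those genes are a description and support nothing here. UMIs are unique molecular identifiers, each marking 1 captured RNA molecule. A member needed at least 1000 UMIs, 500 detected genes, at most 10% mitochondrial UMIs, at least 2 UMIs of Slc1a3, at least 2 UMIs over Hopx, Gas1, Gdf10 and Frzb, more of these than of the astrocyte genes Aqp4, Aldh1l1, Slc4a4 and Bcan, none of Eomes, Olig2, Col1a1 and Col1a2, and at least 1 UMI over Mki67 and Top2a. This left 293 cells of the Setdb1_cKO library and 499 cells of the control library, 792 of the 26457 barcodes in both libraries. The gated radial glia with 0 UMIs of Mki67 and Top2a, called non-cycling below, numbered 847 in Setdb1_cKO and 1094 in control.

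The study dissociated dentate gyri of mice at postnatal day 5 and made 1 droplet 3' RNA library (10x Genomics v3) of Setdb1_cKO tissue and 1 of wild type tissue, the control. cKO stands for conditional knockout. The labels used here do not give the driver of the deletion, the number of animals pooled per library or their strain. Because each genotype is 1 library, no difference between genotypes has a replicate check. Ranges in brackets after a ratio or share are 95% counting intervals, exact conditional Poisson for ratios and exact binomial for shares, which cover counting error only, and no p-value is given.

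Radial glia of the dentate gyrus carry processes and genes they share with astrocytes, such as Slc1a3, a glutamate transporter, and Hopx, a homeodomain protein of quiescent stem cells. They divide to renew themselves or to give Eomes-expressing intermediate progenitors, and mitosis is accompanied by a large program of replication and spindle genes. Setdb1 is a histone methyltransferase that places trimethylation on lysine 9 of histone H3, a mark of silent chromatin. It is known for keeping retroelements and germline genes off in somatic cells.

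The label matched the cells' other genes. Of 12 markers of dividing cells outside the gate, the summed level was 6348 CPM (counts per 1000000 of the cells' summed UMIs) in Setdb1_cKO members and 6257 CPM in control members. The 18 radial glia markers outside the gate summed to 11449 CPM in Setdb1_cKO and 15305 CPM in control. Against the non-cycling radial glia of the same library, the mitotic kinase Plk1 was at 102.5 CPM in cycling and 0.156 CPM in non-cycling Setdb1_cKO cells. The ubiquitin-conjugating enzyme Ube2c was at 474 CPM in cycling and 4.78 CPM in non-cycling control cells. Mki67 and Top2a were used in the gate, so these levels describe it and are no finding. Genes high in the non-cycling cells were glial: the glycolytic enzyme gene Aldoc had 374 CPM in cycling and 1133 CPM in non-cycling Setdb1_cKO cells, and 468 CPM in cycling and 1178 CPM in non-cycling control cells.

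The median member held 9237 UMIs and 3403 genes in Setdb1_cKO and 7385 UMIs and 3089 genes in control, and the median mitochondrial share was 4.54% in Setdb1_cKO and 3.62% in control. Scrublet, a doublet caller, marked 28 of the 293 Setdb1_cKO members and 30 of the 499 control members, and these were kept. Of the barcodes, 68 occur in both libraries and 0 of these are members. Xist, the RNA that coats the inactive X chromosome, had 4215 UMIs in Setdb1_cKO members and 1 in control members. The Y-linked genes Ddx3y, Eif2s3y, Kdm5d and Uty had 0 UMIs each in Setdb1_cKO members and 230, 190, 77 and 63 UMIs in control members. The libraries therefore differ in sex as well as genotype, and the effects of sex and genotype cannot be told apart. On the X chromosome, 9 of 387 measured genes were at least 2-fold higher and 8 at least 2-fold lower in Setdb1_cKO. Over all measured genes the shares were 1.64% higher and 2.41% lower.

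The targeted gene was lower in the Setdb1_cKO library. Setdb1 (chr3:95323525-95357202 in GRCm38, minus strand) had 61 UMIs or 20.2 CPM in Setdb1_cKO members and 211 UMIs or 53.02 CPM in control members. The ratio was 0.380 (0.281 to 0.508). It was 0.387 in non-cycling radial glia and 0.431 in the 371 Setdb1_cKO and 794 control cells with Eomes and dividing-cell UMIs. Microglia, cells of another lineage, had 43.2 CPM in Setdb1_cKO and 45.9 CPM in control. Setdb1 UMIs fell in 19.11% of Setdb1_cKO and 32.9% of control members. A 3' read does not show whether the transcript carries the deletion, so the remaining 61 UMIs do not count undeleted cells.

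A smaller share of gated radial glia was cycling in Setdb1_cKO. The 293 members were 25.7% of 1140 gated Setdb1_cKO radial glia (exact binomial interval 23.2 to 28.3%), and the 499 members were 31.3% of 1593 gated control radial glia (29.1 to 33.7%). The intervals do not overlap. Deeper cells give more chances of a Mki67 or Top2a UMI, and the Setdb1_cKO cells were the deeper ones. After each gated cell was thinned to 2000 UMIs, 17.5% of 1130 Setdb1_cKO and 22.8% of 1554 control cells kept a UMI of either gene. In Neurod6-expressing neurons, which have left the cell cycle, the share was 1.49% in Setdb1_cKO and 1.36% in control at the same depth, with median depths before thinning of 12028 UMIs in Setdb1_cKO and 6538 UMIs in control. When cells were thinned before the whole gate, 94 of 810 Setdb1_cKO cells (11.6%) and 258 of 1271 control cells (20.3%) were cycling. With at least 3 UMIs of Mki67 and Top2a required, the shares were 16.8% in Setdb1_cKO and 18.8% in control, and these intervals overlap. Every setting gave the lower share in Setdb1_cKO, by a factor of 0.572 to 0.890. Cell capture, and sex, cannot be told apart from genotype here.

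**Figure D1:**
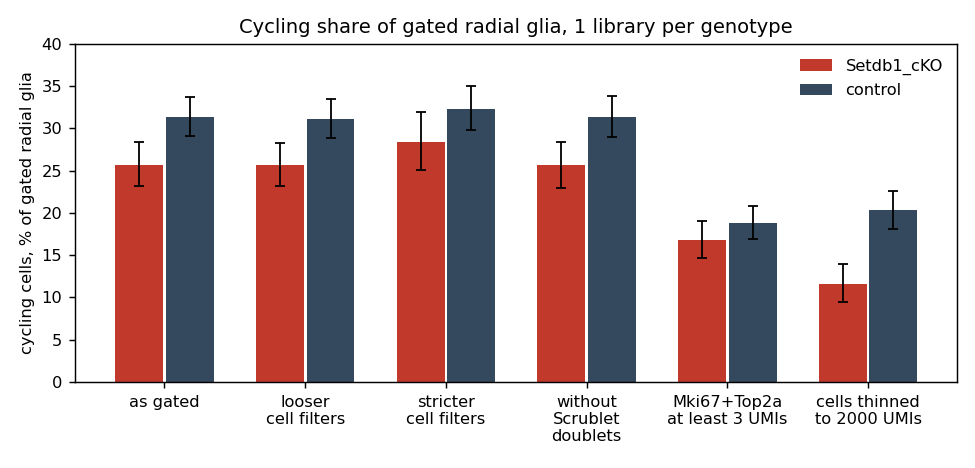
Cycling cells as a percentage of gated radial glia in the Setdb1_cKO library (left bar of each pair) and the control library (right bar), under each cell selection, with exact binomial 95% intervals. Setdb1_cKO is lower in each pair, and the intervals overlap when at least 3 UMIs of Mki67 and Top2a are required or stricter cell filters are used.

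S phase genes differed little in sum between the libraries, and G2/M genes were slightly lower in Setdb1_cKO, though not under every setting. The share of members with more S phase than G2/M list UMIs was 24.6% in Setdb1_cKO (19.8 to 29.9%) and 28.1% in control (24.2 to 32.2%). The 48 S phase genes summed to 5203 CPM in Setdb1_cKO and 5183 CPM in control, a ratio of 1.004 (0.983 to 1.02). The 56 G2/M genes summed to 14427 CPM in Setdb1_cKO and 15057 CPM in control, a ratio of 0.958 (0.946 to 0.970) that was 1.004 scaled by the median ratio of all genes and 1.05 with cells thinned to 2000 UMIs before the gate. Of the 48 and the 56 genes, 0 were 2-fold apart. Pcna, the sliding clamp of DNA polymerase, was at 296 CPM in Setdb1_cKO and 328 CPM in control. Prc1, which bundles the microtubules of the central spindle, was at 548 CPM in Setdb1_cKO and 655 CPM in control, but its ratio was 1.12 with cells thinned in that way. Hmgb2, a chromatin protein high in dividing cells, went the other way, with 3105 CPM in Setdb1_cKO and 2715 CPM in control. It held the most UMIs of the G2/M list, and without it the summed G2/M ratio was 0.917 (0.905 to 0.930). Of the 56 G2/M genes, 15 had a ratio above 1 and 41 below 1, with a median log2 ratio of -0.11.

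More genes were 2-fold lower than 2-fold higher, and outside the sex-linked and haemoglobin genes the widest ratios were those of genes with little or no signal in control. Of 11064 genes with at least 30 UMIs over both libraries, the gate's genes left out, 181 were at least 2-fold higher in Setdb1_cKO (1.64%) and 267 at least 2-fold lower (2.41%). The median log2 ratio over all of them was -0.06. Of the 181 higher genes, 170 were measured in non-cycling radial glia and 88 of those were at least 2-fold higher there too. Of the 267 lower genes, 260 were measured in non-cycling radial glia and 71 were at least 2-fold lower there. On the opposite side of 1 in non-cycling cells were 20 of the higher and 34 of the lower genes. Over all genes measured in both parts, a portion of the 11064, non-cycling cells had 192 at least 2-fold higher and 160 at least 2-fold lower. These counts mix well and thinly counted genes: with 100 UMIs required they were 55 higher and 72 lower of 7978 genes.

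**Figure D2:**
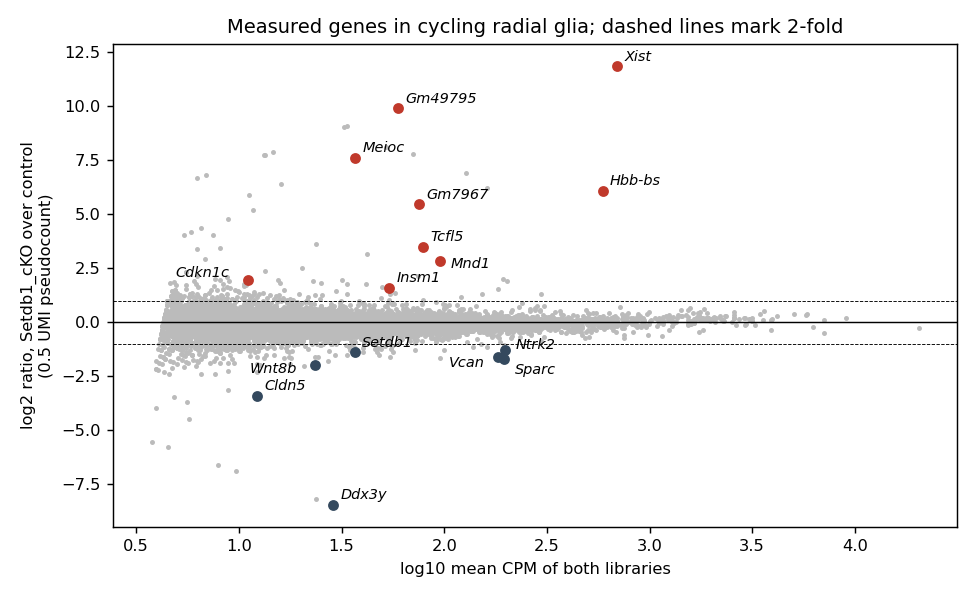
Each grey point is 1 measured gene in cycling radial glia, by its mean level over both libraries (log10 CPM, x axis) and its log2 ratio of Setdb1_cKO over control (y axis), with dashed lines at 2-fold. Named genes are in red where higher and in dark blue where lower in Setdb1_cKO: Xist, Gm49795 and Meioc lie far above the cloud, and Ddx3y far below it.

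Germline genes formed the clearest group. Of 56 listed genes of meiosis and the germline, 17 had no UMI in either library, 30 had a ratio above 1 and 9 a ratio below 1. The 12 with at least 30 UMIs include genes such as Meioc and Tuba3a that reached this minimum through Setdb1_cKO alone, so their count is a description only: 9 were at least 2-fold higher in Setdb1_cKO, against 1.64% of all genes, and 0 were 2-fold lower. The whole list summed to 846 CPM in Setdb1_cKO and 219 CPM in control, a ratio of 3.87 (3.58 to 4.18). Syce2, a synaptonemal complex gene that control cells also carried at 121 CPM, makes up much of the control sum. Without it the ratio was 6.99. The median Setdb1_cKO member had UMIs of 4 listed genes, against 1 in the median control member. At least 3 were found in 245 of 293 Setdb1_cKO members (83.6%) and 55 of 499 control members (11.0%), the deeper cells being those of Setdb1_cKO.

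Meioc, which keeps germ cells in meiotic prophase, had 222 UMIs or 73.4 CPM in Setdb1_cKO members and 1 UMI or 0.251 CPM in control members. That is a ratio of 292 with a counting interval of 51.9 to 11591. Ccnb3, an X-linked cyclin of meiosis, had 196 UMIs or 64.8 CPM in Setdb1_cKO members and 0 UMIs in control members. Against a floor of 3 counts in the control members this is at least 86.0-fold higher. Ccnb3 was outside the germline list and was ranked among the 15 most raised genes.

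Other germline genes had a signal in control too. Mnd1, a partner in meiotic strand exchange, was at 167 CPM in Setdb1_cKO and 23.1 CPM in control, a ratio of 7.24 (5.79 to 9.14). Tcfl5, a transcription factor of spermatocytes, was at 145 CPM in Setdb1_cKO and 12.8 CPM in control, a ratio of 11.3 (8.46 to 15.5). Zcwpw1, a histone reader at meiotic recombination sites, was at 121 CPM in Setdb1_cKO and 27.9 CPM in control. These control signals were spread over cells: Mnd1 had UMIs in 75.4% of Setdb1_cKO and 16.8% of control members, and no control member held more than 2.

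Stag3, the meiotic cohesin subunit, was at 44.0 CPM in Setdb1_cKO and 3.52 CPM in control. Rnf17, a tudor protein of male germ cells, was at 31.7 CPM in Setdb1_cKO and 0.251 CPM in control. Tuba3a, a testis tubulin, had 89 UMIs in Setdb1_cKO and 0 in control, at least 39.0-fold higher against the 3-count floor. Ddx4, the germ cell helicase also called Vasa, had 67 UMIs in Setdb1_cKO and 1 in control. Dmc1, the meiotic recombinase, had 29 UMIs in Setdb1_cKO and 10 in control. Sycp3, of the synaptonemal complex, had 27 UMIs in Setdb1_cKO and 1 in control, under the minimum of 30. With cells thinned before the gate, the ratio was 28.4 for Tcfl5, 7.32 for Zcwpw1, 24.7 for Stag3 and 5.49 for Rnf17. Ddx4, Sycp3 and Dmc1 were named after their values were seen. Dazl, Tdrd1, Piwil2 and Meiob had 0 UMIs in Setdb1_cKO and 1 in control, so not all germline genes were detected at this depth.

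**Figure D3:**
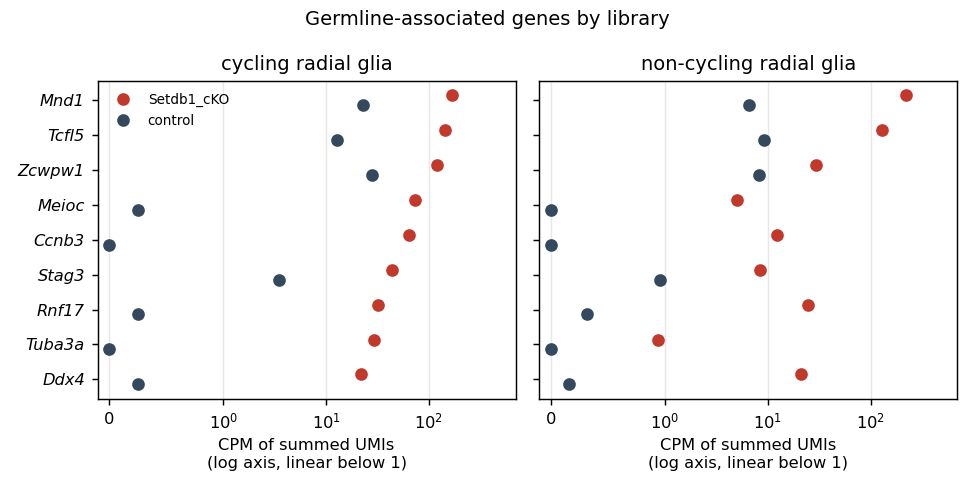
Level of 9 germline-associated genes as CPM of summed UMIs, on a log axis that is linear below 1, in cycling (left panel) and non-cycling radial glia (right panel); red points are Setdb1_cKO, drawn above the dark blue control point of the same gene. Each red point lies to the right of its control point in both panels, and Meioc, Ccnb3 and Tuba3a sit lower in non-cycling than in cycling Setdb1_cKO cells.

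Promoter windows of 4 of these genes are shown as examples of the raised genes, chosen after their values were seen: Meioc, Ccnb3 and Ddx4 had at most 1 UMI in control, and Stag3 had 14. They are RefSeq sequences of GRCm38.p6, 250 bases before to 50 after the annotated start, written 5' to 3' on the gene's strand. Capitals mark CACGTG, the E-box bound by Max-containing dimers, which reads the same on both strands, and GCGGGAA or its reverse complement TTCCCGC, a core of E2F sites. The motifs can share an end base, and do not in these windows. Ddx4 (chr13:112652261-112652560, minus strand) and Stag3 (chr5:138280259-138280558, plus strand) hold 1 of each. Meioc (chr11:102665335-102665634, plus strand) holds the E2F core only. Ccnb3 (chrX:7041570-7041869, minus strand) holds neither.
Ddx4: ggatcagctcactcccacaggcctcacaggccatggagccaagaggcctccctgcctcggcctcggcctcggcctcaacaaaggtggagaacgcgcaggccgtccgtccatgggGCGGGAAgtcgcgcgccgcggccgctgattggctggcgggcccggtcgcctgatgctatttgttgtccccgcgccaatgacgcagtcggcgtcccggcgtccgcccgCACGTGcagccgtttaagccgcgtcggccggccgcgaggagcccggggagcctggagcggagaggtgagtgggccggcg
Stag3: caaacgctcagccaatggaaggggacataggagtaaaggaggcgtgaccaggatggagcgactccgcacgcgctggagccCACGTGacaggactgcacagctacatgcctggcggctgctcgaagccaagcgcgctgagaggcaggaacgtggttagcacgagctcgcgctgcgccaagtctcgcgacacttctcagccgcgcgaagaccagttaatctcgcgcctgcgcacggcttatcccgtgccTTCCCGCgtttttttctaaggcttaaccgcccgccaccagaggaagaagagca
Meioc: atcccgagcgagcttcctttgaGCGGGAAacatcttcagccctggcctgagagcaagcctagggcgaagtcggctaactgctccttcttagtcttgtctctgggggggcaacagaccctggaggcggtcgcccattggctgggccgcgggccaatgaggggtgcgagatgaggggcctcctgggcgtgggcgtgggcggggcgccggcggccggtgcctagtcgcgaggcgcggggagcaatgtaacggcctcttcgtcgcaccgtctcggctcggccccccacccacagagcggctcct
Ccnb3: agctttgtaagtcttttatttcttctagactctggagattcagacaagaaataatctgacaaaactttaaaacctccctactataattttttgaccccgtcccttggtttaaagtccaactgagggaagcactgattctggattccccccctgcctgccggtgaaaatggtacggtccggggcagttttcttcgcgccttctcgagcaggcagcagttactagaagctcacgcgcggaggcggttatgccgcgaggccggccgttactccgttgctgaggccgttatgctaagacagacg
Of 49 listed germline genes with a window, 17 hold CACGTG (34.7%) and 15 hold the E2F core (30.6%). Over the 27025 gene symbols with a window, 8.09% hold CACGTG and 5.29% the E2F core. The germline list includes members with no UMI, so the shares are not a feature of the raised genes, and a match is no evidence of binding. The windows of Mnd1, Tcfl5 and Zcwpw1 hold neither motif. The windows hold 38 CG pairs in Ddx4, 30 in Stag3, 28 in Meioc and 18 in Ccnb3, against a median of 7 over all 32851 windows.

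Some germline genes varied with the cell cycle among gated Setdb1_cKO radial glia. Grouped by UMIs of Mki67 and Top2a as 0, 1, 2, 3 to 9, and 10 or more, Meioc was at 5.00, 32.6, 82.1, 80.7 and 86.5 CPM in Setdb1_cKO. In control it had 1 UMI over all 5 groups. Ccnb3 was at 12.2, 13.99, 10.9, 66.8 and 92.6 CPM over the same groups in Setdb1_cKO, and at 0 UMIs in each group of control. Mnd1 did not follow this order in Setdb1_cKO, with 220 CPM at 0 UMIs and 161 CPM at 10 or more, while in control it was at 6.53 CPM at 0 UMIs and 27.4 CPM at 10 or more. The ratio of Mnd1 was therefore larger in non-cycling cells, 33.7 (24.7 to 47.2), than in cycling cells. Median depth over the 5 groups was 6835, 7540, 6993, 8899 and 12424.5 UMIs per cell in Setdb1_cKO, and the difference between genes was not tested. Members with 2 UMIs of these genes numbered only 23 in Setdb1_cKO.

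**Figure D4:**
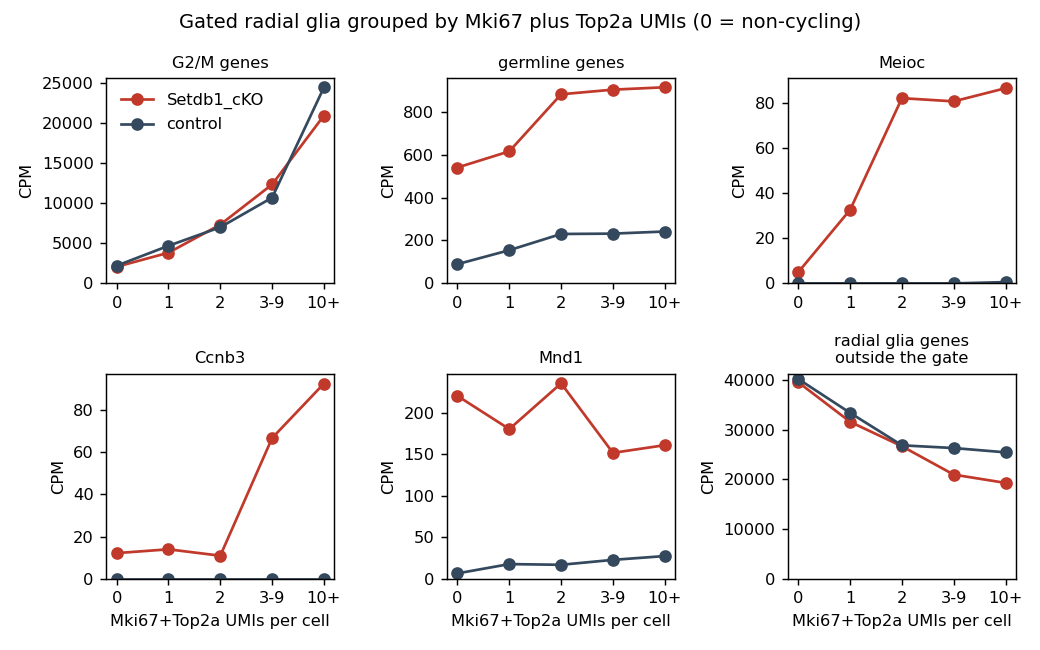
CPM of summed UMIs of 3 lists and 3 genes in gated radial glia grouped by UMIs of Mki67 plus Top2a per cell (x axis, 0 is non-cycling), red for Setdb1_cKO and dark blue for control. In Setdb1_cKO, Meioc is higher from 1 UMI and Ccnb3 from 3 UMIs on, both lie near 0 in control, and radial glia genes outside the gate decline in both.

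Long noncoding RNAs with no known role stood beside the germline genes. Gm49795 (chr17:27353861-27354668) had 359 UMIs or 119 CPM in Setdb1_cKO and 0 UMIs in control, at least 157-fold higher against the floor. Gm48619 had 203 UMIs, Gm11884 had 81 UMIs and 2310043L19Rik had 80 UMIs in Setdb1_cKO, and all had 0 UMIs in control. Gm7967 had 448 UMIs in Setdb1_cKO and 13 in control, a ratio of 45.4, and of 98.8 with cells thinned before the gate. Non-cycling cells showed the same direction, with Gm48619 at 135 CPM in Setdb1_cKO and 0.637 CPM in control. Of 152 measured lincRNAs, 14 were at least 2-fold higher in Setdb1_cKO, a share of 9.21% against 1.47% of protein-coding genes. At least 2-fold lower were 13 of them, a share of 8.55% against 2.21% of protein-coding genes. The 14 higher lincRNAs include Gm49795, Gm48619, Gm11884 and 2310043L19Rik, which reached the minimum for a measured gene through Setdb1_cKO alone. The count of higher lincRNAs is therefore a description only.

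Clustered protocadherins are neuronal cell-surface molecules encoded in large tandem arrays on mouse chromosome 18. They were higher in sum, and the 2-fold genes that were measured were all in the gamma cluster. Of 57 in the files, 6 had no UMI, 34 had a ratio above 1 and 17 a ratio below 1. Of the 15 measured, 5 were at least 2-fold higher in Setdb1_cKO, against 1.64% of all genes, and 0 at least 2-fold lower. All 5 were gamma genes. Among them, Pcdhga10 had 39 UMIs in Setdb1_cKO and 13 in control, and Pcdhgb4 had 22 in Setdb1_cKO and 10 in control. Both reached the minimum through their Setdb1_cKO UMIs, so the count is a description only. Below the minimum, the beta gene Pcdhb18 had 18 UMIs in Setdb1_cKO and 6 in control. Pcdhb14, also below it, had 5 UMIs in Setdb1_cKO and 17 in control. The measured beta genes went both ways, with ratios of 0.627 for Pcdhb7 (0.264 to 1.39) and 1.58 for Pcdhb17 (0.752 to 3.37). The list summed to 212 CPM in Setdb1_cKO and 138 CPM in control, a ratio of 1.54 (1.37 to 1.73). Pcdhga12 had 75 UMIs in Setdb1_cKO and 25 in control, and Pcdhgc3 had 44 UMIs in Setdb1_cKO and 84 in control. With cells thinned before the gate 3 of the 5 turned, Pcdhga7 to 0.915 and Pcdhga10 and Pcdhgb4 to 0, while Pcdhga12 stood at 2.74, Pcdhgb5 at 5.49 and Pcdhgc3 at 0.457. Reads of the gamma cluster share their 3' exons, so its members can be split uncertainly by the counting.

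The lower genes included matrix and receptor genes of glia. Sparc, a secreted matrix glycoprotein, had 276 UMIs or 91.3 CPM in Setdb1_cKO and 1189 UMIs or 299 CPM in control, a ratio of 0.305 (0.267 to 0.349). It was detected in 45.7% of Setdb1_cKO and 76.8% of control members. Vcan, the proteoglycan versican, was at 90.9 CPM in Setdb1_cKO and 275 CPM in control. Ntrk2, the receptor of brain-derived neurotrophic factor, was at 114 CPM in Setdb1_cKO and 283 CPM in control, a ratio of 0.402 (0.356 to 0.454). Wnt8b, a Wnt ligand of the hippocampal margin, had 28 UMIs in Setdb1_cKO and 150 in control. Emid1, a gene with an emilin domain, was at 45.3 CPM in Setdb1_cKO and 146 CPM in control. All 5 were lower in non-cycling radial glia as well, with ratios between 0.207 for Wnt8b and 0.573 for Ntrk2. With cells thinned before the gate the cycling ratio of Emid1 was 0.597. Cldn5, an endothelial junction gene, was also among the 15 lowest, but 69 of its 90 control UMIs lay in 1 cell. Of 23 matrix and integrin genes in the files, 19 were measured, and 3 of these were at least 2-fold lower, against 2.41% of all genes, and 0 higher.

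Radial glia genes outside the gate were lower as a group, though not when cells were thinned before the gate. All 36 listed were measured and 2 were at least 2-fold lower, against 2.41% of all genes. The median log2 ratio was -0.37 against -0.06 over all genes. The 36 genes summed to 22759 CPM in Setdb1_cKO and 27596 CPM in control, a ratio of 0.825 (0.817 to 0.833). Fabp7, a brain fatty acid binding protein, was at 5883 CPM in Setdb1_cKO and 8263 CPM in control. Dbi, which binds acyl-CoA, was at 5792 CPM in Setdb1_cKO and 6701 CPM in control. In non-cycling radial glia the summed ratio was 0.984, with a median log2 ratio of -0.19. In the cells with Eomes and dividing-cell UMIs it was 0.772, with a median log2 ratio of -0.50, so the lower sum was not particular to the members. Among members with 10 or more UMIs of Mki67 and Top2a the sums were 19300 CPM in Setdb1_cKO and 25454 CPM in control. When every cell was thinned to 2000 UMIs before the gate, which changes the members to 94 Setdb1_cKO and 258 control cells as well as their depth, the ratio was 1.03. With the 293 and 499 members kept and each cell given equal weight it was 0.864.

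**Figure D5:**
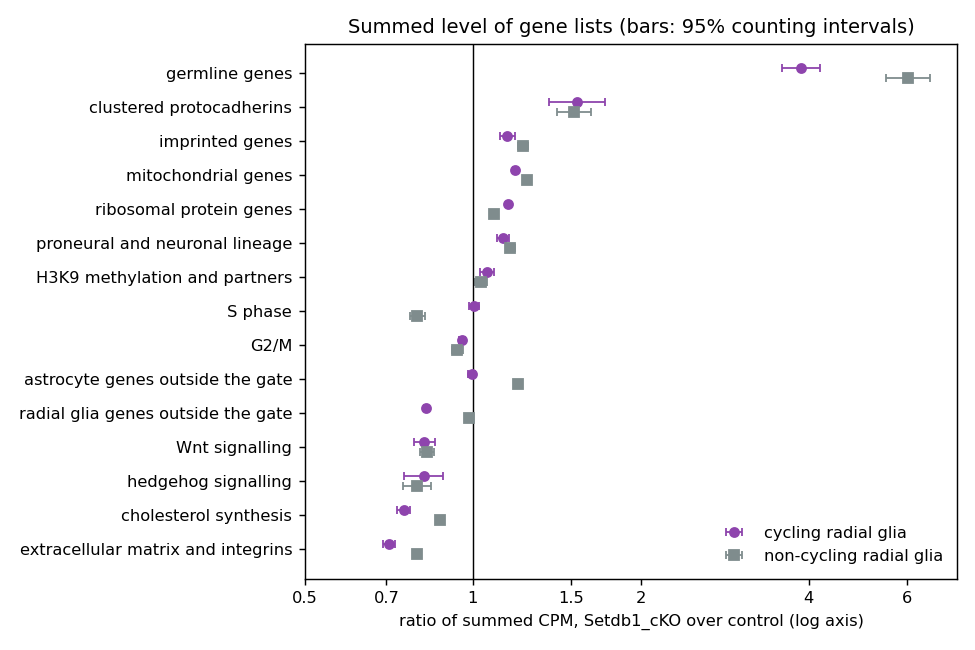
Ratio of the summed CPM of selected gene lists, Setdb1_cKO over control, on a log axis with 95% counting intervals. Purple circles are cycling and grey squares non-cycling radial glia. The haemoglobin and sex-linked lists, at 78.8 for haemoglobin and 10.6 for sex-linked genes in cycling cells, are not drawn. Among the lists drawn, germline genes are highest at 3.87 in cycling and 6.02 in non-cycling cells, and extracellular matrix genes lowest at 0.707 in cycling cells.

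Wnt, hedgehog and cholesterol synthesis genes were lower in sum, while BMP and oxidative phosphorylation genes stood near 1. BMP signalling and Id genes summed to a ratio of 0.985 (0.956 to 1.01), and the 43 nuclear subunits of oxidative phosphorylation to 1.01 (0.999 to 1.02), with 20 of them above 1. Wnt genes summed to a ratio of 0.819, with 1 of 23 measured genes at least 2-fold higher (Rspo3) and 2 lower (Wnt8b and Wnt7b). Over all genes these shares were 1.64% higher and 2.41% lower. Hedgehog genes summed to 0.817, and Gli1, the pathway's readout, had 25 UMIs in Setdb1_cKO and 72 in control. Ptch1, its receptor, was at 65.5 CPM in Setdb1_cKO and 110 CPM in control, though its ratio was 1.13 with cells thinned before the gate. Cholesterol synthesis genes summed to 0.752 (0.732 to 0.773), with 24 of 25 measured genes below 1. That sum was 0.942 when cells were thinned before the gate. Of the 25 genes, 1, Scd1, was at least 2-fold lower, against 2.41% of all genes. Notch genes summed to 0.938 and 0 of 18 measured were 2-fold apart. Klf4, a zinc finger factor induced by growth signals, was at 11.6 CPM in Setdb1_cKO and 35.4 CPM in control, and at 0 UMIs in Setdb1_cKO when cells were thinned before the gate.

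Genes of neuronal commitment were higher in sum, though not when cells were thinned before the gate. Of 21 measured proneural and neuronal lineage genes, 15 had a ratio above 1 and 6 below 1. Among them 1 was at least 2-fold higher, against 1.64% of all genes, and 0 at least 2-fold lower. The list summed to 3507 CPM in Setdb1_cKO and 3096 CPM in control, a ratio of 1.13. Insm1, a zinc finger factor of delaminating progenitors, was at 81.0 CPM in Setdb1_cKO and 26.9 CPM in control, a ratio of 3.01 (2.39 to 3.82). Hes6, an antagonist of Hes1, was at 145 CPM in Setdb1_cKO and 96.7 CPM in control. Btg2, an antiproliferative gene of neurogenic divisions, was at 203 CPM in Setdb1_cKO and 147 CPM in control, and in non-cycling cells it was at 162 CPM in Setdb1_cKO and 185 CPM in control. The summed ratio was 0.723 when cells were thinned before the gate, which changes both depth and members, and Insm1 was then 1.72. With the same members and each cell given equal weight the summed ratio was 1.08. Cells with any Eomes UMI were barred by the gate, which removes part of the committed cells of both libraries.

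Growth inhibitors, partners of Setdb1 and gene dosage were examined by list. Cdkn1c, an imprinted inhibitor of cyclin-dependent kinases, had 53 UMIs in Setdb1_cKO and 18 in control, a ratio of 3.88 (2.23 to 7.03), and 18 of the 53 lay in 1 cell. Other inhibitors of these kinases, named after their values were seen, had ratios of 0.520 for Cdkn1a (0.278 to 0.931), 0.685 for Cdkn2d (0.564 to 0.830), 0.838 for Cdkn1b (0.738 to 0.951) and 0.888 for Cdkn2c (0.766 to 1.03). Btg1, an antiproliferative gene, was at 0.736 (0.665 to 0.814). The list of G1 cyclins, kinases and inhibitors summed to a ratio of 0.982 (0.953 to 1.01), with 13 of 22 measured genes above 1. Atf7ip, which stabilises Setdb1 and brings it to chromatin, was at 217 CPM in Setdb1_cKO and 87.7 CPM in control, a ratio of 2.47 (2.17 to 2.83), and 2.46 in non-cycling cells. Of the 26 measured genes of H3K9 methylation, Atf7ip was the 1 at least 2-fold higher and Setdb1 the 1 at least 2-fold lower. Over all genes these shares were 1.64% higher and 2.41% lower. Interferon genes summed to 152 CPM in Setdb1_cKO and 137 CPM in control, and 0 of 11 measured were 2-fold apart. Of 14 p53 target and damage genes measured, 7 had a ratio above 1 and 7 below 1, and the list summed to a ratio of 1.01. Among them 2 were at least 2-fold higher, against 1.64% of all genes: Phlda3 and Bbc3, both under 12 CPM in Setdb1_cKO, and Phlda3 stood at 0.915 with cells thinned before the gate. Mdm2, the ubiquitin ligase that degrades p53, was at 0.738 (0.557 to 0.972). Mitochondrial transcripts were higher at a ratio of 1.19, and ribosomal protein genes at 1.16.

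Markers of other cell types differed in level and spread. Astrocyte markers, which radial glia share, summed to 2464 CPM in Setdb1_cKO and 2929 CPM in control. They had a UMI in 98.6% of Setdb1_cKO and 99.8% of control members. Aqp4, Aldh1l1, Slc4a4 and Bcan are among these markers and were used in the gate, so this sum is a description only. The 30 astrocyte genes outside the gate summed to a ratio of 0.995 (0.982 to 1.01). Neuroblast markers summed to 1348 CPM in Setdb1_cKO and 1141 CPM in control, a ratio of 1.18. They were found in 96.6% of Setdb1_cKO and 93.2% of control members. Of these markers, Sox11 stood at 0.513 and Igfbpl1 at 0.749 with cells thinned before the gate, and the sum was not recomputed there. Sox11 also counts among the intermediate progenitor markers, so the sums of the neuroblast and intermediate progenitor markers are not independent. Intermediate progenitor markers other than Eomes, which was barred, summed to 915 CPM in Setdb1_cKO and 830 CPM in control. Ependymal markers summed to 45.3 CPM in Setdb1_cKO and 17.6 CPM in control, a ratio of 2.58. They were found in no larger share of cells, 11.3% of Setdb1_cKO and 12.4% of control members. Haemoglobin genes summed to 1881 CPM in Setdb1_cKO and 23.9 CPM in control, and 2 Setdb1_cKO cells held 5634 of the 5689 haemoglobin UMIs; the non-cycling ratio was 0.566. The 7 Cajal-Retzius markers summed to 192 CPM in Setdb1_cKO and 68.6 CPM in control. Endothelial markers summed to 34 UMIs in Setdb1_cKO and 199 UMIs in control, mural markers to 115 CPM in Setdb1_cKO and 255 CPM in control in 44.0% of Setdb1_cKO and 65.5% of control members, and microglia markers to 69.4 CPM in Setdb1_cKO and 107 CPM in control. Without the 9 Setdb1_cKO and 11 control cells that held over 10 UMIs of haemoglobin or of endothelial, microglia or Cajal-Retzius markers, 154 genes were at least 2-fold higher and 255 lower, and Sparc stood at 0.319. The ratio was then 0.383 for Setdb1, 3.92 for the germline sum and 0.837 for the sum of radial glia genes outside the gate. Cells with mural, astrocyte, neuroblast or ependymal markers were kept, and the part of these markers in the results was not tested.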

How the data were processed

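Per the labels' protocols, dentate gyri of mice at postnatal day 5 were dissociated with a neural tissue kit and loaded for 10x 3' v3 libraries, 1 of Setdb1_cKO and 1 of wild type tissue. The deposited matrices hold raw UMI counts per gene and barcode, and no normalized values were used. Per the submitters' processing notes, reads were processed with Cell Ranger 7.1.0 on mm10, and Seurat is named there. Total UMI counts were 87845965 in Setdb1_cKO over 12060 barcodes and 82393428 in control over 14397 barcodes, and 9956 Setdb1_cKO and 11414 control barcodes passed the cell filters.

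The members and the gene lists were chosen with earlier results of these data known. Counts were summed over members of a library and divided by the summed UMIs to give CPM. Ratios of Setdb1_cKO over control carry exact conditional Poisson intervals and shares Clopper-Pearson intervals, both at 95% and for counting error only. Genes with 30 or more UMIs in all count as measured, a log2 ratio used a pseudocount of 0.5 UMI, and a gene was called at 2-fold, with no test because there is 1 library per genotype. Named genes were the 15 highest and 15 lowest by the interval bound nearest 1 among genes reaching 20 CPM in either library, plus at most 6 per list, Setdb1, markers and sex-linked genes. Mfap2, Ddx4, Sycp3, Dmc1 and others noted in the text were named after their values were seen. Doublets were scored with Scrublet at an expected rate of 8% (scanpy 1.11.5) and kept. Cells were thinned to 2000 UMIs to compare shares across depths. Some genes that the naming rule gives are not reported here. The ratio code was tested on simulated counts. Analyses ran in Python 3.11.15 with numpy 2.4.6, scipy 1.17.1 and pandas 2.3.3. Of 32285 gene identifiers, 32158 matched the annotation of GRCm38.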

Additional observations from a re-analysis of the deposited data

Results flagged for a closer look

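The following genes had a ratio of Setdb1_cKO over control on 1 side of 1 in cycling radial glia and on the other side in non-cycling radial glia, with both counting intervals clear of 1. The difference itself was not tested, since each genotype is 1 library.

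Haemoglobin transcripts, carried mostly by 2 cells of the Setdb1_cKO library, gave cycling ratios of 278 for Hbb-bt, 126 for Hba-a2, 68.4 for Hbb-bs and 74.8 for Hba-a1, against non-cycling ratios of 0.646 for Hbb-bt, 0.539 for Hba-a2, 0.585 for Hbb-bs and 0.474 for Hba-a1. Reln, a secreted protein of Cajal-Retzius cells, gave 2.50 in cycling cells, and Ndnf, another marker of those cells, 3.44, with 66 of its 196 Setdb1_cKO UMIs in 1 cell.

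Pclaf stood at 1.11, Dut at 1.12, Hist1h1b at 1.12 and Hmgn2 at 1.22 in cycling cells, against 0.603 for Pclaf, 0.853 for Dut, 0.648 for Hist1h1b and 0.896 for Hmgn2 in non-cycling cells. These are 4 genes picked by this pattern and not a group: of the 48 S phase genes, 28 were below 1 in cycling cells, Pcna at 0.901 and Tk1 at 0.783 among them. Btg2 was at 1.38 and Sox4 at 1.14 in cycling cells, with 0.878 for Btg2 and 0.863 for Sox4 in non-cycling cells.

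Phgdh, of serine synthesis, was at 0.772, Ncan at 0.772, Dbi at 0.864, Slc1a2 at 0.874, Mt3 at 0.891 and Id3 at 0.950 in cycling cells, and the neuronal gene Map1b was at 0.914. The non-cycling ratios were 1.07 for Phgdh, 1.08 for Ncan, 1.05 for Dbi, 1.05 for Slc1a2, 1.07 for Mt3, 1.27 for Id3 and 1.20 for Map1b. These genes too were picked by the pattern: the astrocyte list summed to a ratio of 0.995 in cycling cells, where Apoe stood at 1.22, Gfap at 1.43, Cst3 at 1.06 and Ntsr2 at 1.40.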

How the results depend on the processing

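The Setdb1 ratio and the germline sum kept their direction under all alternatives run on them. The Setdb1 ratio ranged from 0.363 to 0.412. The germline sum ranged from 3.82 to 4.06 and was 4.56 with cells thinned to 2000 UMIs before the gate, an alternative chosen after seeing the data. The cycling share of Setdb1_cKO radial glia was 11.6% thinned, 28.4% under stricter filters and 16.8% with 3 UMIs of Mki67 and Top2a, and that of control 20.3% thinned and 18.8% with 3 UMIs. Higher genes numbered 497 at a minimum of 10 UMIs, 55 at 100 UMIs and 51 thinned before the gate, and lower genes 584 at 10 UMIs and 72 at 100 UMIs; the minimum sets how many genes are counted, 13078 at 10 UMIs and 7978 at 100 UMIs. Without Scrublet-marked cells the split was 134 higher and 348 lower. The summed radial glia ratio was 0.864 scaled by the median ratio, 0.864 as a mean of each cell's CPM, 0.770 with 3 UMIs of Mki67 and Top2a, 0.783 under stricter filters, 0.845 without Scrublet-marked cells, 0.837 without cells with UMIs of other cell types, and 1.03 thinned before the gate. 

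With cells thinned before the gate, which leaves 94 Setdb1_cKO and 258 control members, values on the other side of 1 were Pclaf 0.957, Cenpf 1.11, Tubb4b 1.14, Prc1 1.12, Pcdhga7 0.915, Stat2 0.845, Phlda3 0.915, Id3 1.12, Ptch1 1.13, Sox11 0.513, Sox4 0.673, Igfbpl1 0.749, Mt3 1.12, Fabp7 1.04, Dbi 1.09, Hmgcs1 1.13, Fdps 1.17, and Pcdhga10, Pcdhgb4, Ier3, Egfr at 0. The same setting gave summed ratios of 1.05 for G2/M genes, 0.961 for H3K9 methylation genes and 0.723 for proneural genes, and a median log2 ratio of 0.075 for G2/M genes. Stricter filters gave 0.796 for Hbb-bt, 0.995 for Hba-a2, 0.733 for Hbb-bs, 1.01 for Cenpf, 1.01 for the G2/M sum, 0.814 for the haemoglobin sum and -0.44 for its median log2 ratio. Without Scrublet-marked cells Meg3 was 0.611, Ndnf 0.584 and Ccl4 0. Without cells with UMIs of other cell types Hbb-bt was 0.671, Ndnf 0.671 and Ccl4 0. With 3 UMIs of Mki67 and Top2a Cst3 was 0.980 and the histone sum 0.999. Scaled by the median ratio, Cox4i1 was 1.0007 and the G2/M sum 1.004. The cause was not tested. Of 1646 recomputed values over all results and alternatives, 1310 stayed within the main interval or within 1.5 times the main count. Depth limits genes below 30 UMIs, and thinning leaves few UMIs per gene. No paired analysis was possible because each genotype has 1 library.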

Other observations

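Some genes outside the lists stood out after their values were seen. Mfap2, a microfibril protein, was at 319 CPM in Setdb1_cKO and 85.7 CPM in control cycling radial glia. The ratio was 3.73 with an interval of 3.29 to 4.23. It stood at 80.9 CPM in Setdb1_cKO and 56.7 CPM in control non-cycling cells. With cells thinned to 2000 UMIs before the gate its ratio was 1.78. Rbm46, an RNA-binding protein of germ cells, was at 51.9 CPM in Setdb1_cKO and 15.1 CPM in control, and Cox6b2, the testis form of a cytochrome c oxidase subunit, was at 50.6 CPM in Setdb1_cKO and 13.1 CPM in control. Both were higher in non-cycling Setdb1_cKO cells too, at ratios of 3.54 for Rbm46 and 2.78 for Cox6b2. With cells thinned before the gate the cycling ratios were 5.49 for Rbm46 and 6.40 for Cox6b2. Socs2, an inhibitor of cytokine signalling, was at 57.2 CPM in Setdb1_cKO and 142 CPM in control, and Emx2os, a noncoding RNA beside Emx2, at 20.2 CPM in Setdb1_cKO and 54.8 CPM in control.

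Gm47283, which the annotation places on chromosome Y, was at 310 CPM in Setdb1_cKO and 77.1 CPM in control, although Ddx3y, Eif2s3y, Kdm5d and Uty had 0 UMIs in Setdb1_cKO. The source of its reads was not tested.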
